A study of Danio rerio with 6 samples.

Results

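Integrins are adhesion receptors that join 1 alpha and 1 beta subunit at the cell surface. Beta2 dimers are the leukocyte integrins that bind cell surface ligands and complement fragments, alpha4 and beta7 subunits are known in mammals from lymphocyte homing, and beta1 dimers hold cells to fibronectin, laminin and collagen. In blood-forming organs these receptors are known for the lodging, release and migration of blood cells. The genes described here are the zebrafish rows with an Ensembl ID whose symbol names an alpha or beta integrin subunit, leaving out the thrombocyte integrin genes itga2b, itgb3a and itgb3b and the integrin-binding protein gene itgb1bp1. The rule found 30 rows with 29 symbols, because itgb1b.1 stands in 2 rows, among the 27314 rows of the deposited table.

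The libraries came from red-photoconverted coro1a-Dendra2+ cells of the larval zebrafish kidney, 3 from larvae given MTZ and 3 from larvae given DMSO. Larvae of both groups carried the transgene Tg(coro1a:DenNTR), whose label protein is made under the promoter of the leukocyte gene coro1a. They were labelled WT in genotype and were 9 dpf (3.5 dpt), and a 405 nm laser had turned the label red in the kidney. With transgenes of this kind MTZ is usually metronidazole, which nitroreductase (NTR) turns into a cell toxin. About 80 larvae were pooled, and each Smart-seq2 library, a full-length cDNA method without molecular identifiers, was made from 50 sorted cells. Whether each library had its own pool is not stated, so a p-value reflects how far these libraries spread, and that spread may be technical.

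Library totals were between 16928977 and 20674280 counts in MTZ and between 14058382 and 16400587 counts in DMSO. Levels are given in CPM, counts scaled to the normalised library total, and a count of 3 in a library equalled between 0.149 and 0.233 CPM. The sort was checked with coro1a, the promoter gene of the transgene, which had 1287, 2012 and 1610 CPM in MTZ libraries and 2573, 2458 and 1508 CPM in DMSO libraries. All 7 pan-leukocyte markers, itgb2 among them, had more than 3 counts in all 6 libraries. Markers of other cell types differed between single libraries. Neutrophil markers summed to 17078 CPM in MTZ 1 and to between 1168 and 5691 CPM elsewhere. These sums rest largely on the genes lyz and srgn, which had 9301 and 3330 CPM in MTZ 1. In MTZ 2, MTZ 3 and DMSO 2 srgn had 1038, 1228 and 996 CPM, while lyz had at most 6.68 CPM. The sums in those libraries are therefore mostly srgn and do not show how the other neutrophil rows ran. Skeletal muscle markers summed to 9429 CPM in DMSO 1 and to at most 26.2 CPM elsewhere, and exocrine pancreas markers to 794 CPM in MTZ 3 and at most 32.4 CPM elsewhere.

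Of the 30 integrin rows, 15 had more than 3 counts in at least 1 library, 2 reached only 1 or 2 counts and 13 were at 0 in all 6 libraries. Among all 27314 rows of the table, 10945 had more than 3 counts in no library, beside 15 of the 30 integrin rows. The genes itgb2, itgae.2, itgb7, itga4 and itga1 had more than 3 counts in every library. They made up 33.3% of the detected integrin genes, against 32.7% of the 16369 rows of the table detected by the same rule. The other 10 detected integrin genes were present in some libraries and at or near 0 in others, which was also the case for 67.3% of all detected rows. Between 8 and 11 integrin genes were detected per MTZ library and between 7 and 9 per DMSO library. Of all rows, 10351, 9635 and 11334 were detected in MTZ libraries and 10076, 10104 and 10160 in DMSO libraries. Every MTZ library had a larger total of counts than every DMSO library. Summed over all 30 rows, integrin transcripts stood at 315, 748 and 397 CPM in MTZ libraries and at 556, 752 and 509 CPM in DMSO libraries, so the groups overlapped. Gene lengths were not used here, so levels of different integrin genes are not ranked against each other.

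**Figure D1:**
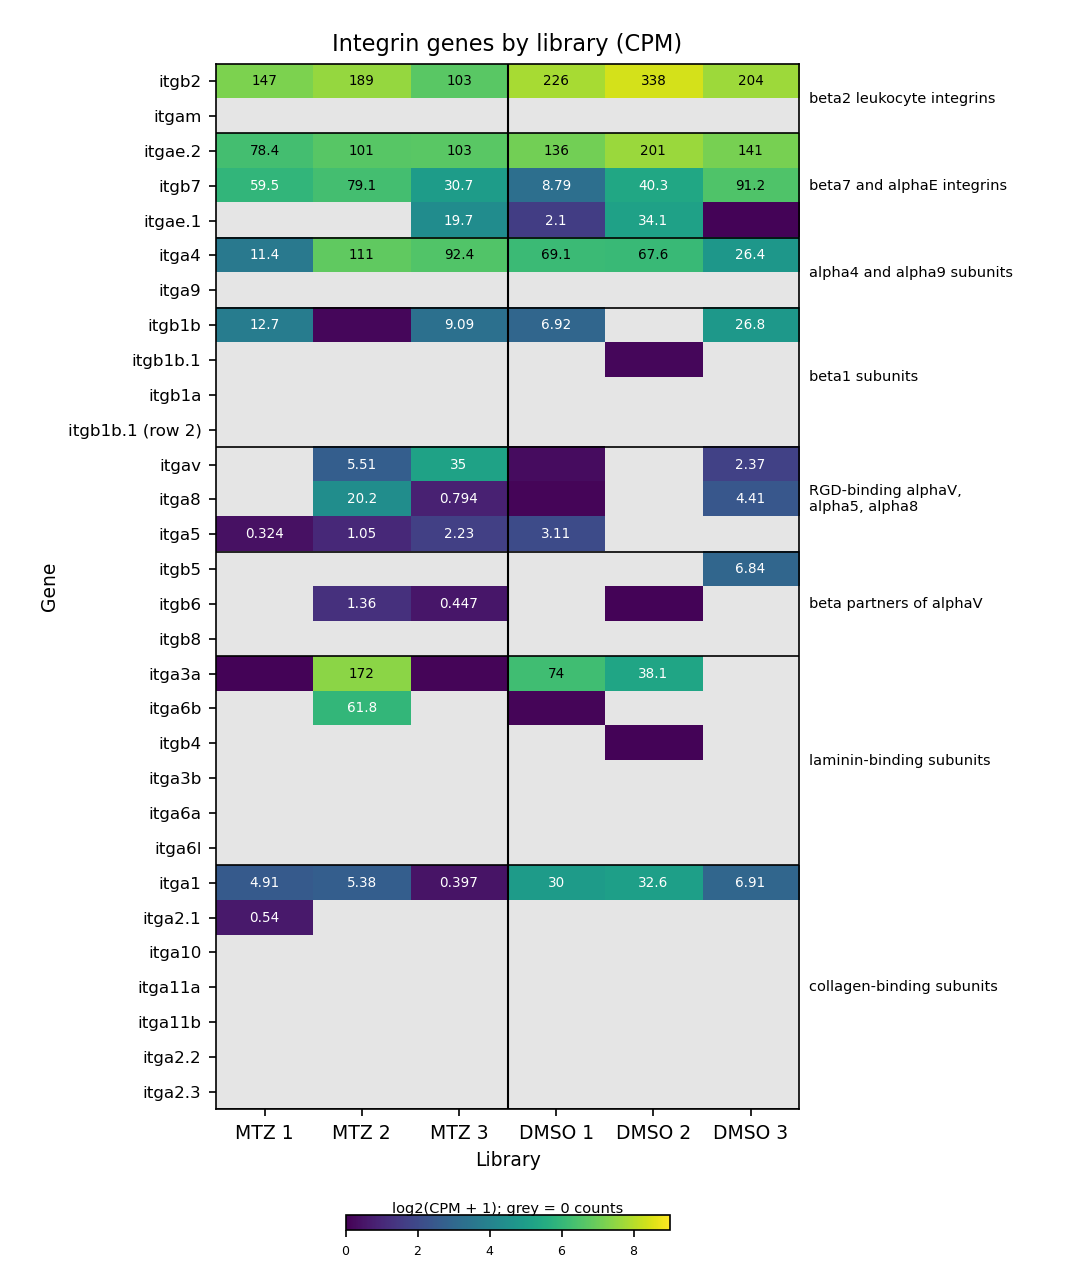
Each row is an integrin gene and each column a library, with MTZ left of DMSO. Colour gives log2(CPM + 1), grey marks 0 counts, and the CPM is printed where a library had more than 3 counts. Genes itgb2, itgae.2, itgb7, itga4 and itga1 filled all 6 columns, and 13 rows were at 0 throughout.

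The comparison of MTZ with DMSO asks how the labelled kidney blood cells differ after the drug. No integrin gene passed the test, and the lower levels of itgb2, itgae.2 and itga1 in MTZ were the differences without overlap between the groups. The quasi-likelihood test of edgeR could be run on 11 integrin genes. At an adjusted p under 0.05 it called 0 of these 11, and over all 10283 tested genes it called 0, a percentage of 0. Because the test called no gene at all, a count of 0 does not show that integrin levels were equal. At an unadjusted p under 0.05 it found 0 integrin genes, against 327 genes or 3.18% of all tested, with 1.83% higher and 1.35% lower in MTZ. DESeq2 called 0 of the 10 integrin genes to which it gave an adjusted p, against 130 genes or 1.33% of all. With the filter on low counts removed, edgeR called 0 of 17 integrin genes, against 52 genes or 0.29% of all. Of the 11 tested integrin genes 6 had a higher and 5 a lower level in MTZ, beside 50.9% and 49.1% of all tested genes. Their median log2 fold change was 0.22, beside 0.02 over all tested genes. The 3 without overlap were all lower in MTZ, where 5.17% of all tested genes showed that pattern, 5.58% showed it higher in MTZ and 10.8% showed it in either direction. Members reached the test only where enough libraries held them, so the 11 do not stand for all 30. In these bulk libraries, fewer cells of a type and less RNA per cell cannot be told apart.

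**Figure D2:**
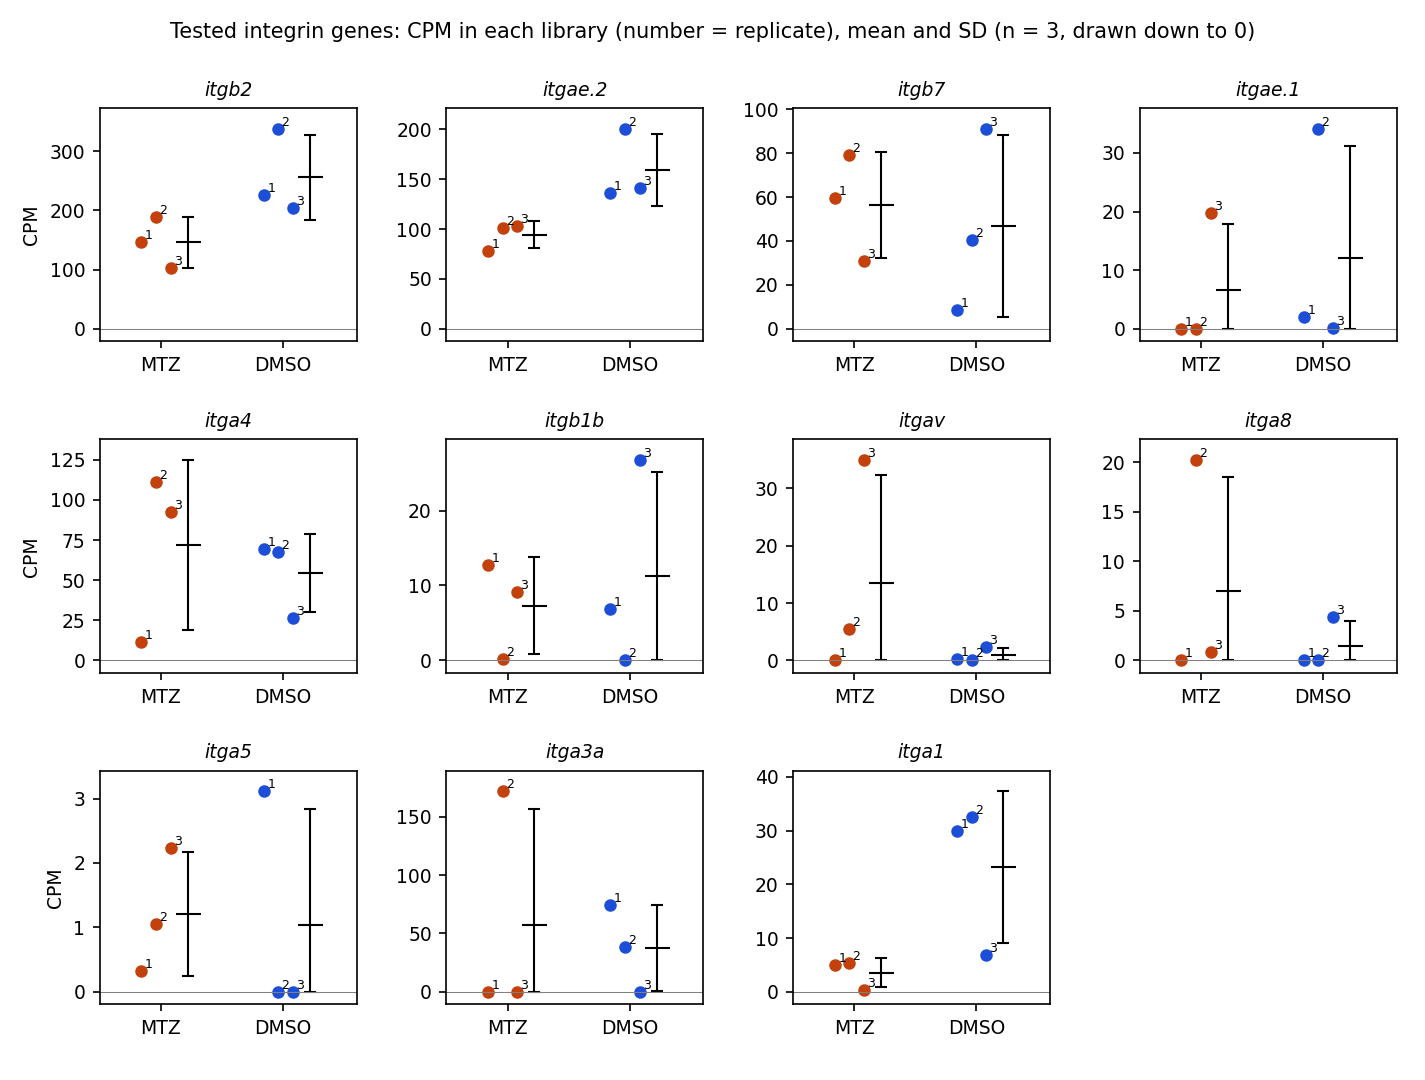
Each panel shows 1 tested integrin gene, with CPM on a linear axis and the 3 MTZ libraries left of the 3 DMSO libraries (points numbered by replicate). Black bars give the mean and SD over 3 libraries, drawn down to 0. The points of the groups are separate for itgb2, itgae.2 and itga1, and intermingled for the other 8 genes.

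The beta2 subunit gene itgb2 (ENSDARG00000016939) encodes the shared chain of the leukocyte integrins. It had 147, 189 and 103 CPM in MTZ libraries, against 226, 338 and 204 CPM in DMSO libraries. The highest MTZ library lay below the lowest DMSO library, and DMSO 2 stood above all the others. The means were 146 ± 43.0 CPM in MTZ and 256 ± 72.3 CPM in DMSO (SD, n = 3 each). The log2 fold change was -0.81 ± 0.37 (standard error) and did not pass edgeR's test (unadjusted p = 0.0575, adjusted p = 0.9997). At an unadjusted p of this size or smaller, 363 of the tested genes stood level with it or before it. Leaving out 1 library at a time gave values from -1.03 (without MTZ 2) to -0.54 (without DMSO 2) on that scale.

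Other general leukocyte genes did not share 1 direction with itgb2. The actin-bundling protein gene lcp1 had 1492, 2079 and 1055 CPM in MTZ and 1785, 2404 and 1357 CPM in DMSO, and coro1a had a log2 fold change of -0.41 ± 0.26. The leukocyte phosphatase gene ptprc had 175, 243 and 104 CPM in MTZ, against 87.7, 118 and 15.7 CPM in DMSO (log2 fold change 1.24 ± 0.71). EdgeR called none of the 3 (each with an adjusted p of 0.9997). The remaining pan-leukocyte markers overlapped between the groups. Of these, arhgdig had 1357, 1738 and 1612 CPM in MTZ and 1909, 2104 and 1710 CPM in DMSO. Laptm5 had 768, 853 and 861 CPM in MTZ and 1119, 1196 and 651 CPM in DMSO. Wasb had 235, 273 and 377 CPM in MTZ and 243, 193 and 185 CPM in DMSO. Within a library, the ratio of itgb2 to lcp1 was 0.0987, 0.0909 and 0.0975 in MTZ libraries and 0.126, 0.141 and 0.150 in DMSO libraries, without overlap. The ratio of itgb2 to coro1a was 0.114, 0.0939 and 0.0639 in MTZ and 0.0877, 0.138 and 0.135 in DMSO, with overlap. These ratios were chosen after the values were seen and carry no test.

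Some lymphocyte and macrophage markers were also lower in all MTZ than in all DMSO libraries. This held for 2 of 13 tested T cell rows (tox and lck), with cd28 higher without overlap, for 1 of 7 NK and innate lymphoid rows (il2rb) and for 2 of 12 macrophage rows (cd74a and cd74b). Over all tested genes, 5.17% were lower and 5.58% higher in MTZ without overlap. Other markers were higher in MTZ without overlap. They were itga2b, nfe2 and f13a1b of 8 thrombocyte rows (with gp9 lower), fli1a of 8 stem and progenitor rows and krt8 of 2 skin rows. The T cell kinase gene lck had 0.0540, 70.97 and 86.0 CPM in MTZ libraries, against 127, 99.2 and 238 CPM in DMSO libraries. The cytokine receptor gene il2rb had 0, 16.7 and 11.1 CPM in MTZ, against 52.8, 34.8 and 22.95 CPM in DMSO. The part of these cells in the levels of itgb2, itgae.2 and itga1 was not tested.

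The alpha partner gene itgam, the beta2 partner of myeloid cells in mammals, was at 0 in all 6 libraries, MTZ 1 with its 17078 CPM of neutrophil markers included. No row with an Ensembl ID was found under the symbols itgal or itgax, and these partners are not analysed here.

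The alphaE subunit, which in mammals pairs with beta7 and binds E-cadherin on epithelia, has a pair of genes here, itgae.1 and itgae.2. The gene itgae.2 (ENSDARG00000057787) had 78.4, 101 and 103 CPM in MTZ libraries, against 136, 201 and 141 CPM in DMSO libraries. All MTZ libraries lay below all DMSO libraries, with DMSO 2 again the highest. The means were 94.4 ± 13.96 CPM in MTZ and 159 ± 36.1 CPM in DMSO (SD, n = 3 each). The log2 fold change was -0.75 ± 0.39 and missed the threshold (edgeR unadjusted p = 0.0871, adjusted p = 0.9997). With 1 library left out it ran from -0.84 to -0.54. Like itgb2, itgae.2 was lower in MTZ. The ratio of itgae.2 to itgb2 was 0.532, 0.537 and 1.01 in MTZ libraries and 0.601, 0.593 and 0.692 in DMSO libraries. Thus 5 of the 6 libraries lay between 0.532 and 0.692, and MTZ 3 above them. To lcp1 the ratio was 0.0525, 0.0488 and 0.0981 in MTZ and 0.0760, 0.0835 and 0.104 in DMSO. To coro1a it was 0.0609, 0.0504 and 0.0643 in MTZ and 0.0527, 0.0816 and 0.0934 in DMSO. To itgb7 it was 1.32, 1.28 and 3.37 in MTZ and 15.4, 4.97 and 1.54 in DMSO. All these ratios overlapped between the groups, were chosen after the values were seen and carry no test.

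The other gene of the pair, itgae.1 (ENSDARG00000098012), had more than 3 counts in MTZ 3, DMSO 1 and DMSO 2. It had 0, 0 and 396 counts in MTZ, or 19.7 CPM in MTZ 3, and 27, 584 and 1 counts in DMSO, or 34.1 CPM in DMSO 2. Reads could have been split between the 2 copies in counting, so the level of each is uncertain. The log2 fold change of itgae.1, -0.88 ± 3.12 (edgeR adjusted p = 0.9997), turned to 2.60 without DMSO 2 and to -10.60 without MTZ 3.

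The beta7 gene itgb7 (ENSDARG00000044318) encodes the beta chain shared by the gut-homing dimers of lymphocytes in mammals. Its level was 59.5, 79.1 and 30.7 CPM in MTZ libraries and 8.79, 40.3 and 91.2 CPM in DMSO libraries. The groups overlapped, and the lowest and the highest library were both DMSO. The means were 56.4 ± 24.3 CPM in MTZ and 46.8 ± 41.6 CPM in DMSO (log2 fold change 0.27 ± 0.97, edgeR adjusted p = 0.9997). The sign turned to -0.21 without DMSO 1 and to -0.05 without MTZ 2. The ratio of itgb7 to itgb2 spread from 0.0389 to 0.448 over the DMSO libraries, a range that held the 3 MTZ libraries at 0.404, 0.418 and 0.299.

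The alpha4 gene itga4 (ENSDARG00000103056), whose product pairs with beta1 or beta7 and is known in mammals for holding progenitors in the marrow, had 11.4, 111 and 92.4 CPM in MTZ libraries. In DMSO libraries it had 69.1, 67.6 and 26.4 CPM. MTZ held both the lowest library, MTZ 1, and the highest, MTZ 2. The means were 71.7 ± 53.1 CPM in MTZ and 54.4 ± 24.2 CPM in DMSO (log2 fold change 0.40 ± 0.91, edgeR adjusted p = 0.9997), and the value was -0.06 without MTZ 2 and 0.92 without MTZ 1. MTZ 1 was also the library with the highest neutrophil sum and the lowest T cell sum. T cell markers, of which 2 of 15 rows (cd4-1 and cd8a) were at 0 everywhere, summed to 1025, 3879 and 2661 CPM in MTZ and to 3235, 2792 and 2850 CPM in DMSO. The largest row of each sum was ccr9a, with 780, 2842 and 1696 CPM in MTZ and 2029, 1327 and 1362 CPM in DMSO. A large part of each sum was thus 1 gene, and the sums do not show how the other T cell rows ran. The gene lck had 1 count in MTZ 1 and between 1147 and 3618 counts in the other libraries. The part of these marker differences in the level of itga4 was not tested. The related gene itga9 was at 0 in all 6 libraries.

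Of the beta1 genes, itgb1b (ENSDARG00000104484) was the only one with more than 3 counts in any library. It had 12.7, 0.124 and 9.09 CPM in MTZ libraries and 6.92, 0 and 26.8 CPM in DMSO libraries, so 1 library of each group was at 2 counts or at 0. The means were 7.30 ± 6.47 CPM in MTZ and 11.2 ± 13.9 CPM in DMSO (log2 fold change -0.62 ± 2.61, edgeR adjusted p = 0.9997), and the sign turned to 1.09 without DMSO 3. The paralog itgb1a was at 0 in all 6 libraries, and the 2 rows named itgb1b.1 held 2 counts in DMSO 2 and none elsewhere. Paralogs of this kind can share reads, so their split is uncertain.

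Genes for alpha subunits that bind collagen or laminin were present in part. The alpha1 gene itga1 (ENSDARG00000074316), for the collagen and laminin receptor known from effector T cells and stromal cells in mammals, had 4.91, 5.38 and 0.397 CPM in MTZ libraries. In DMSO libraries it had 30.01, 32.6 and 6.91 CPM. The groups did not overlap, though MTZ 2 and DMSO 3 lay close together. The means were 3.56 ± 2.75 CPM in MTZ and 23.2 ± 14.1 CPM in DMSO. The log2 fold change was -2.70 ± 1.97 (edgeR unadjusted p = 0.206, adjusted p = 0.9997) and ran from -3.13 to -2.17 with 1 library left out. Fibroblast and stroma markers summed to 200.2, 188 and 5.21 CPM in MTZ libraries and to 320, 1.93 and 409 CPM in DMSO libraries. Of these 9 rows 1 was at 0 everywhere, and their part in the level of itga1 was not tested. The alpha2 gene itga2.1 had 10 counts in MTZ 1 and none elsewhere. The genes itga2.2, itga2.3, itga10, itga11a and itga11b were at 0 in all 6 libraries.

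The laminin receptor gene itga3a (ENSDARG00000037917) was present or nearly absent by library, in both groups. It had 1, 2772 and 2 counts in MTZ libraries, or 172 CPM in MTZ 2. In DMSO libraries it had 952, 651 and 0 counts, or 74.02 CPM in DMSO 1 and 38.1 CPM in DMSO 2. Each group thus held libraries with at least 651 counts and libraries with at most 2. The log2 fold change of 0.61 ± 2.61 (edgeR adjusted p = 0.9997) turned to -8.78 without MTZ 2. Another laminin receptor gene, itga6b (ENSDARG00000069946), had 999 counts in MTZ 2, or 61.8 CPM, 1 count in DMSO 1 and none in the other libraries. MTZ 2 therefore held the highest counts of both. The genes itga3b, itga6a and itga6l were at 0 in all 6 libraries, and itgb4, whose product pairs with alpha6 in epithelia, had 1 count in DMSO 2.

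**Figure D3:**
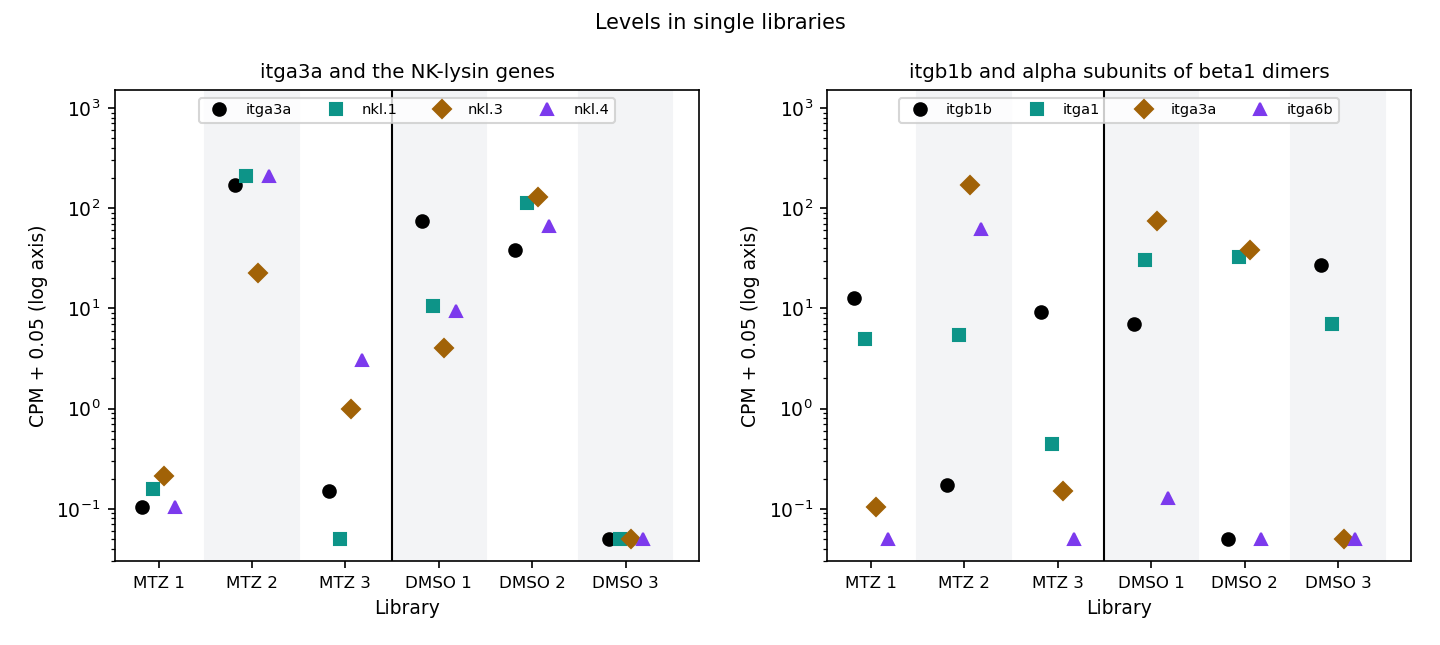
CPM + 0.05 on a log axis in each library, MTZ left of DMSO. The left panel shows itga3a with the NK-lysin genes, chosen after the values were seen, and the right panel itgb1b with alpha subunit genes. In MTZ 2, DMSO 1 and DMSO 2 itga3a stood at 172, 74.02 and 38.1 CPM, and itgb1b at 0.124, 6.92 and 0 CPM.

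The genes of subunits known for binding the RGD motif of fibronectin and vitronectin were found in some libraries only. The alphaV gene itgav (ENSDARG00000006314) had 0, 5.51 and 34.96 CPM in MTZ libraries, against 0.233, 0 and 2.37 CPM in DMSO libraries. Its MTZ mean rested on MTZ 3, and MTZ 1 was at 0 like DMSO 2. The log2 fold change was 3.95 ± 3.16 (edgeR adjusted p = 0.9997), 1.67 without MTZ 3 and 6.79 without DMSO 3. MTZ 3 had the highest sum of macrophage markers, 3037 CPM, with 1559 and 377 CPM in MTZ 1 and 2 and 1940, 1090 and 1616 CPM in DMSO libraries. The largest row in MTZ 3 was mfap4 at 1520 CPM, and the rows of the list were mixed. The gene c1qb was also highest in MTZ 3, at 276 CPM. By contrast, mpeg1.1 had 135 CPM in MTZ 3, against 569 CPM in DMSO 1 and 238 CPM in DMSO 3. The level of cd74a was lowest in MTZ 3, at 10.4 CPM. None of the 15 macrophage rows was at 0 in all libraries, and their part in the level of itgav was not tested.

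The alpha8 gene itga8 (ENSDARG00000078717) had 0, 327 and 16 counts in MTZ and 1, 0 and 67 counts in DMSO, and its log2 fold change of 2.22 ± 3.05 turned to -1.88 without MTZ 2. The fibronectin receptor gene itga5 (ENSDARG00000006353) had 6, 17 and 45 counts in MTZ and 40, 0 and 0 counts in DMSO, so all MTZ libraries and a single DMSO library held it. Its log2 fold change of 0.22 ± 2.305 turned to -0.59 without MTZ 3, to -0.35 without DMSO 2 and to -0.36 without DMSO 3, and was 7.40 without DMSO 1. Neither gene passed edgeR's test (adjusted p = 0.9997 for both). Among the beta chains that pair with alphaV, itgb5 had 104 counts in DMSO 3 and none elsewhere. The gene itgb6 had 22 and 9 counts in MTZ 2 and MTZ 3 and 1 count in DMSO 2, and itgb8 was at 0 in all 6 libraries.

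**Figure D4:**
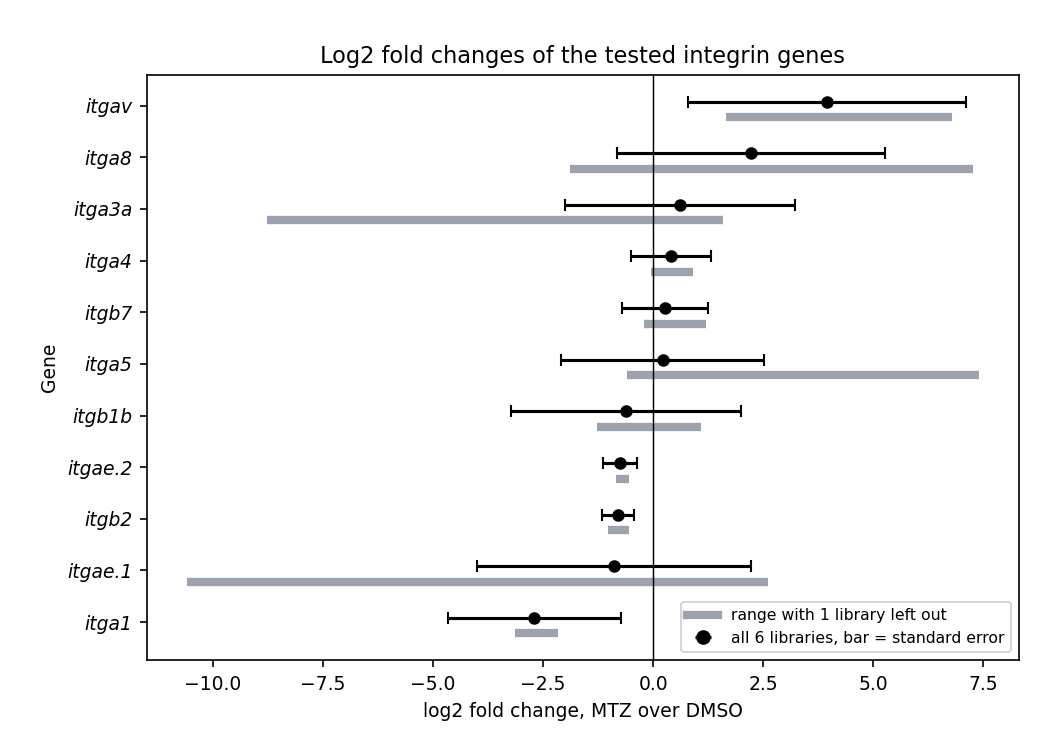
Points give the log2 fold change of MTZ over DMSO for the 11 tested integrin genes, with the standard error as bars, and grey bars give its range when 1 library is left out. The range stayed below 0 for itgb2, itgae.2 and itga1 and above 0 for itgav, and crossed 0 for the other 7 genes.

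For comparison, the thrombocyte integrin gene itga2b had 72.2, 69.2 and 48.02 CPM in MTZ libraries, against 1.87, 0.0585 and 0.132 CPM in DMSO libraries. DESeq2 called it (adjusted p = 0.000250), edgeR did not (adjusted p = 0.9997), and its log2 fold change was 6.52 ± 1.79. The genes for the beta3 chain that joins its product showed no such split. The gene itgb3b had 385 counts in MTZ 1 and 282 counts in DMSO 2 and none elsewhere, and itgb3a was at 0 in all 6 libraries.

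Inside the cell, talins and kindlins switch integrins on, and a set of adaptors links them to actin. Of 65 symbols listed for this machinery 60 were found and 35 rows were tested. In MTZ 15 were higher and 20 lower, and the median of their log2 fold changes was -0.08. EdgeR and DESeq2 each called 0 of them, and 0 stood at an edgeR unadjusted p under 0.05. In 5 of the 35, or 14.3%, MTZ and DMSO libraries were fully separate, beside 10.8% of all tested genes. The small GTPase gene rap1b, whose product recruits talin, had 515, 477 and 489 CPM in MTZ libraries, against 390, 393 and 289 CPM in DMSO libraries (log2 fold change 0.47 ± 0.24). The Src family kinase gene lyn had 28.01, 21.3 and 35.5 CPM in MTZ, against 2.33, 3.74 and 2.63 CPM in DMSO (log2 fold change 3.28 ± 1.71). Both were separate between the groups, and the DESeq2 adjusted p of lyn was 0.0782. The tensin gene tns1b had 66.02 CPM in MTZ 2 and at most 1.12 CPM elsewhere, and its log2 fold change of 5.81 ± 3.21 was 0.69 without that library.

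Lower in MTZ, the related GTPase gene rap1ab had 23.5, 17.02 and 50.2 CPM, against 86.2, 60.98 and 69.8 CPM in DMSO (log2 fold change -1.26 ± 0.79), again without overlap. The adaptor gene dok1b had 34.1, 10.6 and 0.149 CPM in MTZ and 22.3, 87.4 and 105 CPM in DMSO, with overlap. The T cell adhesion adaptor gene skap1 had 9.82, 63.2 and 27.7 CPM in MTZ and 68.7, 37.1 and 125 CPM in DMSO, with overlap, and is itself among the T cell markers. Talin itself, tln1, had 182, 253 and 146 CPM in MTZ and 177, 399 and 202 CPM in DMSO. The leukocyte kindlin gene fermt3b had 107, 39.2 and 177 CPM in MTZ and 202, 33.2 and 105 CPM in DMSO. For all of these the edgeR adjusted p was 0.9997.

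Among 51 ligands and matrix symbols 45 were found and 15 rows were tested. In MTZ 6 were higher and 9 lower, and the median of their log2 fold changes was -1.82. EdgeR and DESeq2 each called 0. In 2 of the 15, or 13.3%, MTZ and DMSO libraries were separate, beside 10.8% of all tested genes. At an edgeR unadjusted p under 0.05 stood 1 gene or 6.67%, beside 3.18% of all tested genes. It was the collagen gene col1a2, with 5.29, 6.002 and 0.794 CPM in MTZ libraries and 104, 0.585 and 114 CPM in DMSO libraries (log2 fold change -4.18 ± 1.77, unadjusted p = 0.0445). DMSO 2 lay below every MTZ library. The basement membrane collagen gene col4a1 had 4.82 and 14.3 CPM in DMSO 1 and DMSO 3 and at most 0.742 CPM elsewhere. The laminin gene lama4 had 13.7 and 49.3 CPM in the same DMSO libraries and at most 2.48 CPM elsewhere. The fibroblast and stroma markers, col1a2 among them, had the sums given with itga1. They were highest in these DMSO libraries and lowest in DMSO 2. In MTZ 1 and MTZ 2 they stood at 200.2 and 188 CPM. There col1a2, col4a1 and lama4 were low, while col1a1a, of the same list and also a stroma marker, had 79.4 and 88.7 CPM. Elsewhere col1a1a had 0.149 CPM in MTZ 3 and 42.2, 0.0585 and 68.6 CPM in DMSO libraries. The part of fibroblast and stroma cells in the list's median was not tested.

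On the higher side, the matrix protein gene tgfbi had 67.8, 52.96 and 139 CPM in MTZ and 66.7, 0 and 44.5 CPM in DMSO. The junction molecule gene jam2a had 21.5, 18.1 and 26.5 CPM in MTZ and 17.2, 8.59 and 0 CPM in DMSO, without overlap. The other gene without overlap was mfge8b, for a secreted RGD protein, which was lower in MTZ with 0, 10.4 and 5.66 CPM, against 37.2, 11.4 and 22.6 CPM in DMSO. The protease gene adam8a had 69.8 CPM in MTZ 1, the library with the highest sum of neutrophil markers (adam8a is one of them), 11.9 CPM in DMSO 1 and at most 1.91 CPM elsewhere. Its log2 fold change of 2.33 ± 3.19 turned to -9.23 without MTZ 1, to -1.73 with limma voom and to -2.62 with the replicate number as a block. The gene vcam1a, whose product is the endothelial ligand of alpha4, had 0 counts in all MTZ libraries and 21 counts in DMSO 3 alone.

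Of 24 symbols of other leukocyte adhesion molecules 20 were found and 11 rows were tested. In MTZ 5 were higher and 6 lower, the median of their log2 fold changes was -0.01, and edgeR and DESeq2 called 0. None stood at an edgeR unadjusted p under 0.05, and in 0 of the 11 were the groups separate, beside 3.18% and 10.8% of all tested genes. The tetraspanin genes cd9a and cd82b and the gene cd99l2 had the smallest p on the higher side. Cd9a had 78.5, 85.8 and 153 CPM in MTZ and 86.2, 49.8 and 36.2 CPM in DMSO. Cd82b had 15.98, 88.9 and 15.7 CPM in MTZ and 17.1, 0.819 and 5.26 CPM in DMSO, and cd99l2 had 40.2, 64.7 and 75.6 CPM against 16.5, 13.7 and 44.98 CPM in DMSO.

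On the lower side stood cd99, alcamb and selp, of which cd99 turned to a log2 fold change of 0.20 and alcamb to 3.03 without DMSO 3, and alcamb to 1.24 with limma voom and to 1.86 with the block. Cd99 had 76.6, 97.4 and 140.4 CPM in MTZ and 99.6, 83.6 and 276 CPM in DMSO. Alcamb had 182 CPM in DMSO 3 and at most 28.2 CPM elsewhere. The selectin gene selp had 5.29, 0.0619 and 7.55 CPM in MTZ and 26.7, 0 and 46.8 CPM in DMSO. The selectin ligand gene selplg, which serves the rolling step before integrin arrest, had 204, 211 and 168 CPM in MTZ and 257, 194 and 126 CPM in DMSO (log2 fold change 0.01 ± 0.36).

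**Figure D5:**
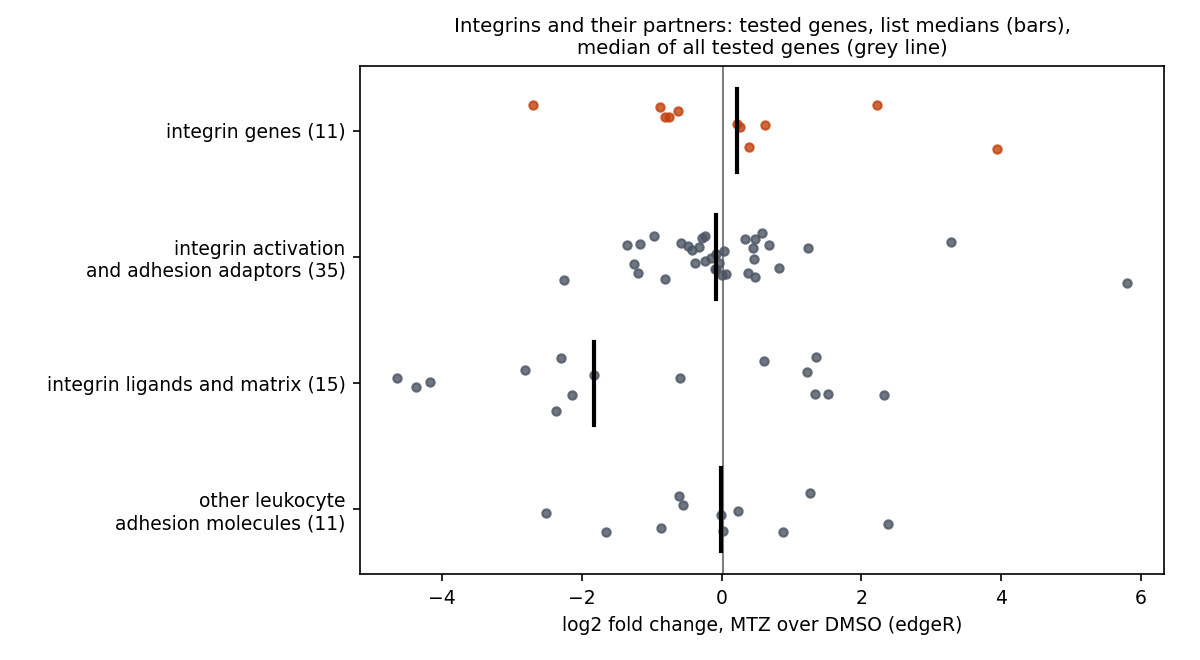
Each point is a tested gene, placed by its log2 fold change of MTZ over DMSO, and black bars are list medians. The grey line is the median of all 10283 tested genes (0.02). The list medians are 0.22 for the integrins, -0.08 for the adaptors, -1.82 for the ligands and matrix genes and -0.01 for the other adhesion molecules. The integrin median turned negative in some alternatives, to -0.59 without MTZ 3.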

How the data were processed

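Smart-seq2 libraries of sorted larval kidney cells (3 MTZ, 3 DMSO) were analysed from 1 table of estimated counts per gene, which the authors deposited unscaled. HISAT2 and GRCz11 are named in the submitters' processing notes, while the sources used here name no version, counter, annotation release or strand setting. Values were rounded to whole numbers, and no integrin value had decimals. Rows with an ID but no symbol (1913) were fitted too.

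The main test was edgeR 4.0.16 (R 4.3.3) quasi-likelihood, two-sided, on all rows passing its default filter (minimum count 10), with TMM factors, group alone, and Benjamini-Hochberg adjustment over 10283 genes. Standard errors are the log2 fold change over the square root of F. On simulated data it recovered nearly all changed genes at a small spread between libraries, and none at a large spread that was still below that of these libraries. It also called 16 unchanged genes at the small spread and 0 at the large spread. Alternatives used DESeq2 1.42.0, limma 3.58.1 voom, other scalings and filters, the replicate number as a block, and each library left out. Every integrin row was named, with values per library for tested ones. Of each gene list the 3 genes of smallest p per direction were named. Those added after their values were seen were mfge8b, the marker rows without overlap, tln1, fermt3b, vcam1a, selplg and lcp1. The marker genes arhgdig, laptm5, wasb, ccr9a, lyz, srgn, mfap4, mpeg1.1, c1qb and col1a1a were also added after their values were seen. The NK-lysin genes and the other NK and innate lymphoid genes set beside itga3a were too. Members and lists were chosen with earlier results of these data known. Floors cover counting error only. No sequences or coordinates were used.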

Additional observations from a re-analysis of the deposited data

How the results depend on the processing

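EdgeR, limma voom and DESeq2 called 0 integrin genes under all 16 alternatives. Over all genes, DESeq2 called 130 and edgeR without a filter 52, against 0 in the edgeR test reported and 0 in the other 14 alternatives. In those 14 a count of 0 shows nothing of stability, because no gene at all was called. DESeq2 and edgeR without a filter called 1.33% and 0.29% of all genes, so their 0 of 10 and 0 of 17 integrin genes say little either. No single fold change of the 29 genes followed moved past the threshold. The sign of itgb2, itgae.2, itga1 and itgav was kept in all alternatives in which they were tested, with log2 fold changes from -1.03 to -0.54, from -0.84 to -0.54, from -3.13 to -2.17 and from 1.67 to 6.79 with a library left out. Limma voom turned itga3a to -1.91, itga4 to -0.047, itgb1b to 0.67, adam8a to -1.73 and alcamb to 1.24. With the replicate number as a block, itga8 turned to -0.82, itgb1b to 0.73, adam8a to -2.62 and alcamb to 1.86. The cause was not tested. With a library left out, ranges that crossed 0 ran from -0.59 to 7.40 for itga5, from -8.78 to 1.58 for itga3a, from -0.21 to 1.198 for itgb7, from -1.88 to 7.28 for itga8, from -10.60 to 2.60 for itgae.1, from -0.055 to 0.92 for itga4, from -1.27 to 1.09 for itgb1b, from -9.23 to 4.58 for adam8a, from -0.83 to 0.20 for cd99 and from -2.22 to 3.03 for alcamb. The labels do not say what the replicate numbers share. Deviations of same-numbered libraries correlated at -0.00794, -0.000827 and -0.0459, and those of differently numbered libraries at -0.0355 to 0.0435. With the spread between these libraries, values near 0 cannot tell whether the numbers pair them. With the block edgeR called 0 genes. The MTZ minus DMSO difference in summed CPM changed sign with a library left out for the laminin-binding subunits (-37.1 to 79.1), alpha4 and alpha9 (-2.03 to 47.7), beta1 (-9.31 to 3.76) and the beta partners of alphaV (-2.83 to 0.563), and over all integrin genes it ran from -247 to -28.5. The limits are 50 cells per library, the differing marker sums and the spread between libraries, with a biological coefficient of variation of 1.42.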

Other observations

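Libraries with many counts of itga3a also had many counts of some genes known from cytotoxic lymphocytes, but not of others. The NK-lysin genes nkl.1, nkl.3 and nkl.4, which encode antimicrobial peptides of such cells, were compared with it after the levels of all marker lists had been seen, so the match was picked from the data and carries no test. In MTZ 2, DMSO 1 and DMSO 2, the libraries with 2772, 952 and 651 counts of itga3a, nkl.1 had 3361, 134 and 1946 counts. In MTZ 1, MTZ 3 and DMSO 3, which had 1, 2 and 0 counts of itga3a, nkl.1 had 2, 0 and 0 counts. The counts of nkl.3 were 366, 51 and 2199 in the first set and 3, 19 and 0 in the second. The counts of nkl.4 were 3415, 120 and 1127 in the first set and 1, 61 and 0 in the second. The other detected genes of the same list, in the same order of libraries, were mixed. Counts of ifng1 were 47, 35 and 50 in the first set and 0, 0 and 0 in the second. The sets overlapped for il2rb, with 270, 679 and 596 counts in the first and 0, 224 and 349 in the second. They also overlapped for eomesa, with 5191, 3346 and 959 counts in the first and 1040, 1437 and 1429 in the second. For tbx21 they overlapped too, with 624, 157 and 702 counts in the first and 745, 247 and 38 in the second. The list of NK and innate lymphoid markers summed to 96.7, 821 and 98.7 CPM in MTZ and to 352, 443 and 119 CPM in DMSO, with gzma and prf1.1 at 0 in all 6 libraries. The levels did not run in the same order, since DMSO 1 had more itga3a and less nkl.1 than DMSO 2. Of all detected rows 67.3% were present in some libraries only, and how many split the libraries as itga3a did was not counted. All these libraries hold 50 cells, and which cells carried itga3a was not measured.

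Alpha subunit genes were also found in MTZ 2 and DMSO 2, where itgb1b had 2 and 0 counts. In mammals alpha1, alpha3 and alpha5 are known to pair with beta1 alone. DMSO 2 held 651 counts of itga3a and 557 of itga1 and 0 counts of itgb1b, and MTZ 2 held 2772 counts of itga3a, 87 of itga1 and 2 of itgb1b. In DMSO 3, where itgb1b was highest at 407 counts, itga3a was at 0 and itga1 at 105 counts. DMSO 1 held itga3a, itga1 and itgb1b together, at 952, 386 and 89 counts. MTZ 1 and MTZ 3 had 235 and 183 counts of itgb1b, 91 and 8 of itga1 and 1 and 2 of itga3a. Presence in some libraries only was also the case for 67.3% of all detected rows. No row with an Ensembl ID was named itgb1b.2, and that gene is not analysed here. The split of reads between beta1 paralogs is uncertain.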
